A study of Saccharomyces cerevisiae with 88 samples.

Results

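COX1, COX2, COX3, COB, ATP6, ATP8, OLI1 and VAR1 are the 8 protein genes that baker's yeast keeps in its mitochondrial genome beside the reading frames inside introns. They were taken by name from the 12454 features of the deposited annotation, and all 8 lay on the mitochondrial chromosome, which held 55 features in all. Each was listed in the RNA-Seq table, where its level was followed over time, and each was looked up in every table of reads cross-linked to Nab3 or to RNA polymerase II (Pol II), 2 nuclear proteins.

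Mitochondrial genes are transcribed by the single-subunit RNA polymerase Rpo41 with its partner Mtf1, both encoded in the nucleus, and not by Pol II. Long primary transcripts are cut into mature RNAs, introns of COX1 and COB are spliced out, and translation runs on mitochondrial ribosomes with nucleus-encoded activators that are mostly dedicated to single mRNAs. COX1, COX2 and COX3 encode the core of cytochrome c oxidase (complex IV), and COB encodes cytochrome b of the bc1 complex (complex III). ATP6, ATP8 and OLI1 encode the membrane part of the ATP synthase, and VAR1 encodes a protein of the small mitochondrial ribosomal subunit. Yeast growing on glucose ferments and represses respiration, and removing glucose relieves this repression.

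The study moved exponentially growing cells by filtration out of glucose medium and sampled them for up to 51 min by kinetic cross-linking and sequencing of RNA (χCRAC). RNA-Seq of total RNA depleted of ribosomal RNA was made from BY4741 cells (MATa, with his3Δ1, leu2Δ0, met15Δ0 and ura3Δ0) after the move from glucose (SD-TRP) to no glucose (S-TRP), with 1 library at each of 7 time-points. In the same background, HTP-tagged Nab3 and the HTP-tagged Pol II subunit Rpo21 were each followed in 2 time-courses without glucose and in 1 control time-course in which filtered cells went back into glucose. Pol II was also followed without glucose in the anchor-away strain HHY168, which is MATalpha with tor1-1, a disrupted fpr1 and FKBP12 fused to Rpl13a, with Nab3 carrying the FRB tag. Rapamycin at 1 µg per ml, given 1 h before the shift, moves an FRB-tagged protein out of the nucleus of such cells, and there were 2 cultures with and 2 without it. Another strain with FKBP12 on Pma1, the plasma membrane proton pump, was sampled at 0 and 14 min with and without rapamycin and had, per the study's methods, no FRB tag on Nab3. A test of UV instruments had 1 Nab3 library from the Vari-X-linker and 2 from the Megatron, all in glucose.

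The files held 7557054 to 17997400 reads on features per RNA-Seq library, 10350 to 1309744 per Nab3 library (24 libraries) and 25776 to 836241 per Pol II library (55 libraries). These are sums over all features, so a read on overlapping features was counted once for each. Percents of a library's reads below are shares of these sums. No library was a copy of another from the same time-course or set, and libraries of different time-courses or sets were not compared for this. Time-courses were separate experiments per the series' description, but the time-points of one χCRAC time-course shared 1 cDNA library after barcoding, so those libraries were not separately prepared. All intervals given below cover counting error only.

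The 8 genes lie on 1 strand of a circular chromosome of 85779 bases with 82.9% A and T (build R64; the deposited annotation and RefSeq gave identical exons for all 8). COX1 (Q0045, positions 13818 to 26701) has 8 exons and 7 introns, which hold most of its span of 12884 bases around a coding sequence of 1605 bases. ATP8 (Q0080, 27666 to 27812) starts 964 bases after COX1 and ends 674 bases before ATP6 (Q0085, 28487 to 29266), and these 3 genes are known to share a primary transcript. COB (Q0105, 36540 to 43647) has 6 exons and 5 introns. OLI1 (Q0130, 46723 to 46953) is followed after 1947 bases by VAR1 (Q0140, 48901 to 50097), and these also share a primary transcript. COX2 (Q0250, 73758 to 74513) and COX3 (Q0275, 79213 to 80022) have a single exon each, like ATP6, ATP8, OLI1 and VAR1. The last 19 bases of COX2 also belong to the next reading frame, Q0255, so reads there could not be given to one of them.

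Short sequences that frame these genes are shown because they mark where mitochondrial transcripts start and end. Rpo41 starts transcription at copies of the nonanucleotide ATATAAGTA. This motif was searched on both strands and was found 11 times on the strand of the genes and 3 times on the other. Of the 8 genes, COX1 and OLI1 had a copy within 1200 bases before the start codon, at 469 bases for COX1 and 574 bases for the nearer of 2 copies at OLI1, and 13.7% of all windows of that length held one. The copies stand below in capitals with 10 bases on each side, 5′ to 3′ on the strand of the genes, from RefSeq R64 (mitochondrial positions 13339 to 13367 and 46139 to 46167).
COX1: ataagtattgATATAAGTAatagatataa
OLI1: atacacatttATATAAGTAtatatatata

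The 3′ ends of mitochondrial mRNAs are set at a dodecamer, after which the RNA is cut. The longest word that the genome holds within 500 bases after the stop codons of at least 5 of the 8 genes was TAATAATATTCTT (13 bases, the only such word of that length), and its last 12 bases, AATAATATTCTT, are the dodecamer. The dodecamer was searched on both strands and found 9 times on the strand of the genes and 2 times on the other. COX1, COX2, COX3, COB and ATP6 each had 1 copy within 500 bases after the stop codon, at 69, 63, 101, 98 and 87 bases. The word was picked for lying after at least 5 of the genes, so this count was fixed by the search and tests nothing. Of all windows of that length 5.16% held a copy, which is given for scale only. No copy lay in that window for ATP8, OLI1 or VAR1. The copies are in capitals below, with positions on the mitochondrial chromosome of R64 (26762 to 26790 for COX1, 74568 to 74596 for COX2, 80115 to 80143 for COX3, 43737 to 43765 for COB and 29345 to 29373 for ATP6).
COX1: aatataatAATAATATTCTTataaaaata
COX2: ataattatAATAATATTCTTaaatataat
COX3: attattatAATAATATTCTTacaaatata
COB: aatactttAATAATATTCTTaaaaataat
ATP6: ccccttttAATAATATTCTTttatctaat

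The coding sequences also differed from nuclear ones in composition. A and T made up 66.7% of the coding bases of OLI1, 70.0% of COX3, 70.1% of COX1, 72.3% of COB, 73.3% of COX2, 76.3% of ATP6, 81.0% of ATP8 and 89.6% of VAR1. The median of 6008 nuclear coding sequences was 60.2%, and none of these was richer in A and T than ATP6, ATP8 or VAR1. The first 90 coding bases of the members at the ends of this range are printed with G and C in capitals (R64, positions 46723 to 46812 and 48901 to 48990). OLI1 had 31 G or C bases in this stretch and VAR1 had 6.
OLI1: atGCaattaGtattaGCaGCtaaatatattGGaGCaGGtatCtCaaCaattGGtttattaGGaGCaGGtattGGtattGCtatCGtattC
VAR1: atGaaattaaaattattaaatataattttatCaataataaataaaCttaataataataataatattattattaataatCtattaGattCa

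In total RNA, reads on all 8 genes became a larger share of the library after glucose was removed. Together they took 1.01% of summed reads on features at 40 min (182066 reads), against 0.451% at 0 min (57113 reads). Every one of the 8 genes was at least 2-fold higher at 40 min than at 0 min, as were 24.6% of all features compared, and none was 2-fold lower at any time-point. With 1 library per time-point there was no replicate check and no test. Levels are given in FPKM (reads per kilobase of feature span, scaled to the size of the library). The intervals say nothing of the variation between cultures. RNA-Seq had no control time-course back into glucose. The part of filtration, transfer or time in these changes, and in those of nuclear genes below, was not tested.

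Among the subunits of cytochrome c oxidase, COX1, which carries heme and copper centres, stood at 139, 133, 209, 193, 211, 337 and 320 FPKM at 0, 1, 4, 8, 14, 30 and 40 min. COX2, which takes electrons from cytochrome c, stood at 246, 235, 235, 286, 469, 542 and 611 FPKM at the same time-points. COX3, the remaining core subunit, stood at 67.8, 53.1, 67.8, 72.5, 98.6, 119.8 and 137 FPKM. COX1 was thus already higher at 4 min, while COX2 and COX3 were not above their first value until 8 min and were highest at 40 min. The log2-fold change at 40 min was 1.198 for COX1 (95% counting interval 1.18 to 1.21), 1.31 for COX2 (1.26 to 1.36) and 1.02 for COX3 (0.93 to 1.11).

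COB, whose product carries electrons across the inner membrane within the bc1 complex, stood at 46.2, 42.8, 67.2, 66.3, 94.2, 113 and 115 FPKM at the 7 time-points. Its log2-fold change at 40 min was 1.32 (1.28 to 1.36), close to those of COX1 and COX2. The lengths of COX1 and COB in these values include their introns, so a level per coding base was not given by the tables.

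The genes of the ATP synthase did not keep one pattern. ATP6, the subunit that forms the proton channel with the ring, stood at 86.9, 80.9, 127, 142, 175, 245 and 221 FPKM, a log2-fold change at 40 min of 1.35 (1.27 to 1.43). OLI1, which encodes the subunit that forms the rotating ring, stood at 139.6, 113, 144, 265, 508, 551 and 764 FPKM. At 40 min OLI1 was 5.47-fold higher than at 0 min (5.07 to 5.92), a log2-fold change of 2.45, against 1.02 to 1.35 for COX1, COX2, COX3, COB and ATP6.

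ATP8, a small subunit of the stator, was read rarely in glucose, with 10, 28, 14, 23, 140, 197 and 233 reads at the 7 time-points. Its level was 2.94, 11.6, 6.89, 11.6, 36.7, 70.8 and 51.1 FPKM. It was 17.4-fold higher at 40 min than at 0 min, with a wide interval of 9.30 to 36.8-fold that follows from the 10 reads at 0 min.

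VAR1, the ribosomal protein gene, had the fewest reads of the 8, with 2, 3, 10, 14, 83, 122 and 227. Its level was 0.072 FPKM at 0 min, 2.67 FPKM at 14 min and 6.12 FPKM at 40 min. The ratio of 40 to 0 min was 84.9, and because it rests on 2 reads at 0 min its interval ran from 23.2 to 705. VAR1 and ATP8 thus had the highest ratios of the 8 genes and also the fewest reads at 0 min.

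**Figure D1:**
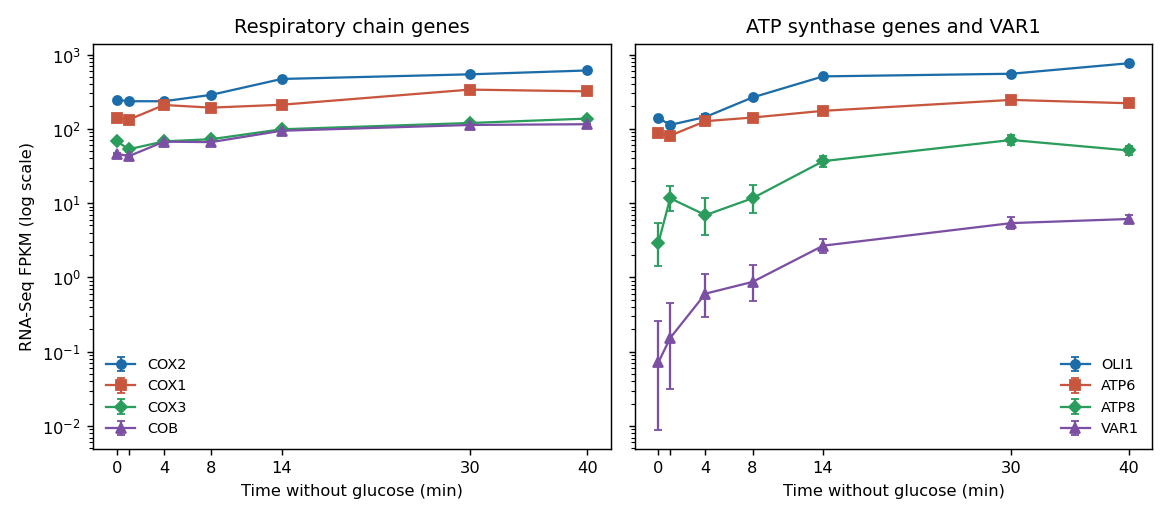
RNA-Seq level (FPKM, log axis) of each of the 8 mitochondrial genes against minutes without glucose. Points are single libraries and bars are 95% counting intervals; at 40 min every gene stood above its 0 min level, from 1.02 (COX3) to 6.41 (VAR1) on the log2 scale, and the bars are widest for ATP8 and VAR1.

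Most of the difference appeared after 8 min. The count of genes at least 2-fold higher than at 0 min was 2, 2, 2, 5, 7 and 8 of 8 at 1, 4, 8, 14, 30 and 40 min. The corresponding share of all features with at least 10 reads at either time was 6.16, 10.1, 11.1, 14.9, 22.5 and 24.6%, and 16.8, 14.2, 20.6, 20.4, 25.5 and 28.9% were at least 2-fold lower, against none of the 8 genes. The genes past 2-fold at 1, 4 and 8 min were ATP8 and VAR1, and for VAR1 at 1 min this rested on 2 and 3 reads with an interval that included no change. At 14 min COB and ATP6 (both just past 2-fold, with log2-fold changes of 1.03 and 1.01), ATP8 (3.65), OLI1 (1.86) and VAR1 (5.21) had passed it, while COX2 (0.93), COX1 (0.60) and COX3 (0.54) had not.

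The median log2-fold change of the 8 genes was 1.02 at 14 min and 1.33 at 40 min, against −0.29 and −0.24 over all features and −0.32 and −0.44 over nuclear protein-coding features. At 1 min, COX3 (−0.35, −0.49 to −0.22) and OLI1 (−0.30, −0.48 to −0.13) were lower than at 0 min, beside a median of −0.16 over all features. The values are shares of a library, and its composition moved at the same time: nuclear protein-coding features took 64.4% of reads at 40 min and 85.0% at 0 min, small nucleolar RNAs 14.9% and 4.22%. Scaling to equal medians of nuclear protein-coding features gave log2-fold changes at 40 min of 1.59 for COX1 and 1.41 for COX3, and scaling all libraries to one FPKM sum gave 1.02 and 0.84, so COX3 was then not past 2-fold. The direction at 40 min was the same for all 8 genes under each of these scalings. More RNA per mitochondrion, more mitochondria and less of other RNAs cannot be told apart in such shares.

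The order of levels changed with time. At 0 min COX2 was highest, followed by OLI1 (139.6 FPKM, 129.7 to 149.9) and COX1 (139.3 FPKM, 138.0 to 140.7), whose intervals overlapped. ATP6, COX3, COB, ATP8 and VAR1 came next, each separated from its neighbours by more than counting error. At 40 min OLI1 was highest and the order below it was COX2, COX1, ATP6, COX3, COB, ATP8 and VAR1, with no overlap of neighbouring intervals. The lengths of COX1 and COB include introns, so both orders are of reads per base of span and not per coding base. OLI1 at 40 min was above 99.4% of nuclear protein-coding features, and VAR1 was above 32.2% of them.

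Genes known to share a primary transcript did not have equal levels. ATP8 stood at 0.231 of the ATP6 level at 40 min and at 0.0338 of it at 0 min. VAR1 stood at 0.00801 of the OLI1 level at 40 min and at 0.000516 of it at 0 min. ATP8 spans 147 bases and OLI1 231, the shortest of the 8, and VAR1 has 89.6% A and T. The parts of length and base composition in these levels were not tested.

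Over the 7 libraries the log2 FPKM values of the 8 genes correlated with each other in all 28 pairs, as a description over points that share a culture and a trend in time. Pearson's r was lowest for COX3 with ATP8 (0.82), highest for COB with ATP6 (0.99) and had a median of 0.93. Of 4735 features outside the mitochondrial chromosome with at least 100 reads in every library, those most like the mean of the 8 genes were PIG2, which encodes a putative regulatory subunit of a protein phosphatase in glycogen metabolism (r = 0.996), BOP2 (r = 0.996) and GYP7, a GTPase-activating protein of vesicle traffic (r = 0.993). PIG2 stood at 13.4 FPKM at 40 min and 3.93 FPKM at 0 min, BOP2 at 24.8 and 3.29 FPKM, and GYP7 at 32.9 and 6.11 FPKM. In all, 304 of the 4735 features had r over 0.9. The mean of the 8 genes was not scaled per gene. VAR1 and ATP8 weighed most in it, with log2-fold changes at 40 min of 6.41 and 4.12 from 2 and 10 reads at 0 min.

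COX1 alone took 66.5 to 76.2% of the reads on the 8 genes, and its reads were unevenly spread along the gene. Several introns of COX1 and COB hold reading frames for maturases, endonucleases and reverse transcriptases, which are listed as features of their own that start with the host gene. Each longer frame contains the shorter ones, so differences between nested counts gave the reads of successive segments, a read across a border being counted in the earlier one. The counts never fell with a longer frame in 70 of 70 checks. Most bases of each segment are intronic: exons made up 6.75% of the first COX1 segment (through AI1) and 1.44% of the second (through AI2).

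The first COX1 segment (bases 1 to 2505 of the gene) stood at 644 FPKM at 40 min and 258 FPKM at 0 min. The second (bases 2506 to 5013) stood at 627 FPKM at 40 min and 304 FPKM at 0 min. These segments, which hold the introns that encode reverse transcriptases, took 36.0% and 42.5% of the COX1 reads at 0 min. Together they held most of the COX1 reads, and their exon and intron bases could not be separated.

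The third segment (bases 5014 to 6179, through AI3) was low, at 65.4 FPKM at 40 min and 22.4 FPKM at 0 min. The fourth (6180 to 8118, through AI4) stood at 189 and 104 FPKM, and the fifth (8119 to 9350, through AI5_ALPHA) at 105 and 46.6 FPKM. The last segment (9351 to 12884), with exons 6, 7 and 8, stood at 102 FPKM at 40 min and 28.9 FPKM at 0 min. It had the highest ratio of the 6 segments, 3.53-fold (3.38 to 3.69), and the fourth the lowest, 1.82-fold (1.76 to 1.89), with intervals that did not overlap. AI5_BETA, an intronic reading frame inside the last segment, had 1148 reads at 40 min and 323 at 0 min, a log2-fold change of 1.41.

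In COB, the first segment (bases 1 to 2040, through BI2) stood at 195 FPKM at 40 min and 86.4 FPKM at 0 min. The second (2041 to 3726, through BI3, with exon 3) had 1223 reads at 40 min and 88 at 0 min, or 23.4 and 2.25 FPKM. Its ratio of 10.4-fold (8.36 to 13.1) was higher than those of the third segment (3727 to 5712, through BI4; 2.93-fold, 2.77 to 3.10) and the last (5713 to 7108, with exons 5 and 6; 2.32-fold, 2.20 to 2.44). BI2, BI3 and BI4 encode maturases that act in splicing of COB introns. Spliced and unspliced molecules were not separated by these counts.

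**Figure D2:**
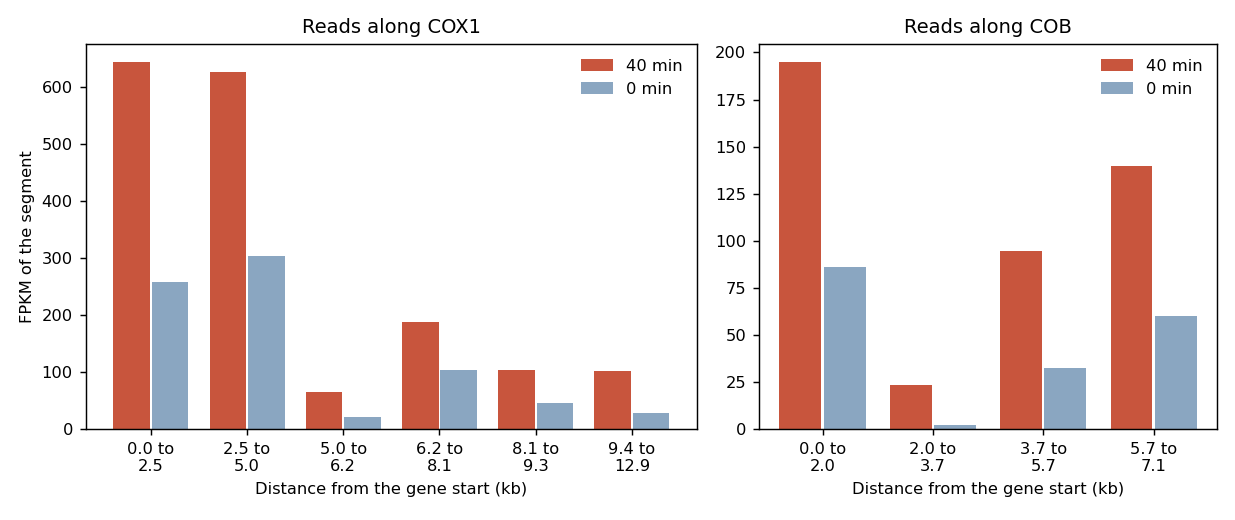
RNA-Seq level (FPKM, linear axis from 0) of successive segments of COX1 and COB, set by nested reading frames, against distance from the gene start (kb). Bars are single libraries at 40 min (red) and 0 min (blue) without glucose; every segment was higher at 40 min, and the second COB segment, at 23.4 FPKM at 40 min and 2.25 FPKM at 0 min, was the lowest of its gene.

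Other mitochondrial RNAs moved in the same libraries, with larger swings. The 15S ribosomal RNA had 100, 1058, 1863, 2385, 119, 5365 and 11247 reads at the 7 time-points and the 21S ribosomal RNA 719, 1076, 2538, 1538, 1071, 5888 and 10329. These RNAs dropped back at 14 min, which none of the 8 genes did. Libraries were depleted of ribosomal RNA, and whether the depletion took mitochondrial rRNA evenly was not tested. The 3 other mitochondrial features with most reads were Q0255, the reading frame after COX2 (1283 reads at 40 min and 163 at 0 min, log2-fold change 2.56), and the tRNAs tH(GUG)Q (2362 and 2 reads) and tF(GAA)Q (2392 and 31 reads). All 24 mitochondrial tRNAs together had 38, 38, 66, 61, 1966, 1060 and 7798 reads. Nuclear tRNAs moved as well, from 0.0269% of reads at 0 min through 0.247% at 14 min to 1.77% at 40 min, and the part of this in the tRNA values was not tested.

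Respiratory complexes are built from mitochondrial and nuclear subunits, so the nuclear partners were set beside the 8 genes. At 40 min, 9 of 9 nuclear subunits of complex III were at least 2-fold higher than at 0 min and none lower (median log2-fold change 1.52). Of the nuclear subunits of complex IV, 5 of 9 were 2-fold higher (median 1.18), and of those of the ATP synthase 3 of 14 (median 0.68), with none 2-fold lower in either list. Of nuclear protein-coding features 16.4% were 2-fold higher. At 14 min, when 5 of the 8 mitochondrial genes had passed 2-fold, 0 of 9, 0 of 9 and 1 of 14 of the nuclear subunits had, with medians of 0.07, 0.05 and −0.18, beside 8.28% of nuclear protein-coding features.

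Within complex III, QCR8 stood at 394 FPKM at 40 min and 92.2 FPKM at 0 min (log2-fold change 2.10) and QCR9 at 89.3 and 26.2 FPKM (1.77). The core protein gene COR1 (1.33) and QCR7 (1.21) had the lowest values of the list, close to the 1.32 of COB. In complex IV, COX7 (2.39) and COX5B (1.91), which encodes the subunit 5 isoform used with little oxygen, were highest, while COX13 (0.68) and COX5A (0.10), the isoform used with oxygen, were lowest. In the ATP synthase, TIM11 and ATP18, which encode subunits e and j of the membrane part, were highest (2.77 and 1.64). ATP2 (0.15) and ATP1 (0.00), which encode the catalytic core, were lowest, so the mitochondrial ATP6 and OLI1 and these core genes did not move alike.

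Of 16 nuclear genes for mitochondrial RNA synthesis and turnover 1 was 2-fold higher and 5 were 2-fold lower at 40 min (median −0.33), and of 16 activators of single mitochondrial mRNAs 2 were higher and 3 lower (median −0.22). Of all features, non-coding ones included, 28.9% were 2-fold lower. That share was not taken over nuclear protein-coding features alone, whose median was −0.44. AEP3, needed for stable ATP8 and ATP6 mRNA, stood at 20.4 FPKM at 40 min and 4.98 FPKM at 0 min (2.04), and NAM2, the mitochondrial leucyl-tRNA synthetase, changed by 0.23. The splicing helicase gene MSS116 stood at 11.9 and 38.9 FPKM (−1.71) and MRS1, a splicing factor for COX1 and COB, at 2.17 and 10.6 FPKM (−2.29). Of the activators, PET494, which acts on COX3 mRNA, was highest (1.77), followed by CBP6 for COB (1.53). PET309 for COX1 (−1.16) and CBS1 for COB (−1.14) were lowest.

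**Figure D3:**
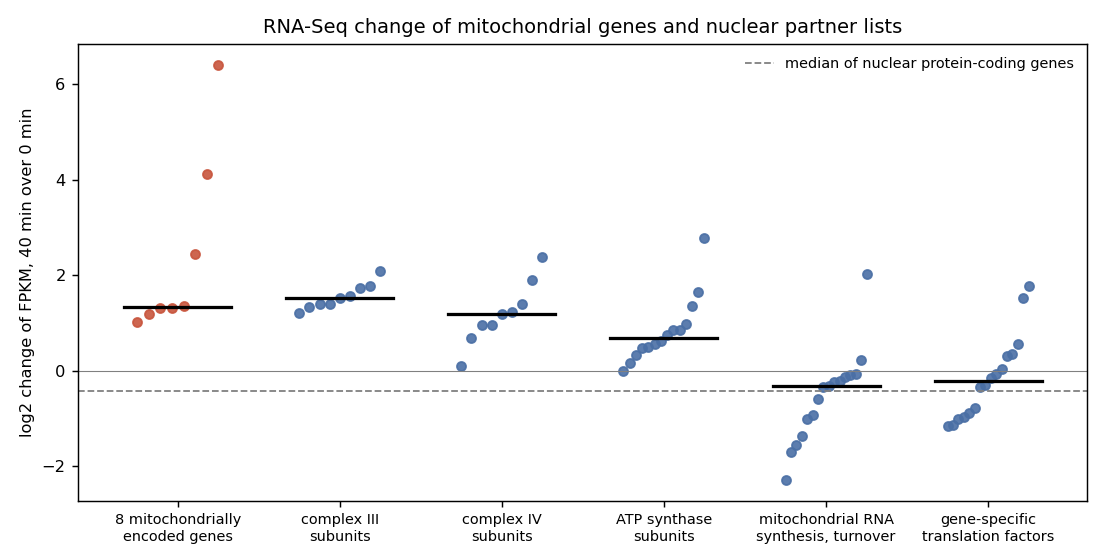
RNA-Seq log2-fold change at 40 min over 0 min without glucose of the 8 mitochondrial genes and of 5 lists of nuclear genes for mitochondrial functions, 1 point per gene, a black line at each median and a dashed line at the median of nuclear protein-coding genes (−0.44). All 8 mitochondrial genes and all 9 nuclear subunits of complex III lay above 1, while the medians of the lists for RNA synthesis and turnover (−0.33) and for translation factors (−0.22) lay below 0.

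Pol II cross-linking gave a replicated measure for the nuclear partners. In limma on log2(FPKM + 1) over all features tested, 2 of 5 tested complex III genes were higher at 20 min than at 0 min, where 7.82% of all features were called higher and 28.1% lower. QCR8 rose by 1.88 ± 0.50 on the log2 scale (SE; adjusted p = 0.0103) and QCR9 by 1.15 ± 0.43 (adjusted p = 0.0489). None of 3 tested complex IV genes and none of 8 tested ATP synthase genes passed. Of the genes for RNA synthesis and turnover 2 of 8 were called lower, MSS116 among them (−1.44 ± 0.46, adjusted p = 0.0261). Of the activators 1 of 3 was called lower. Both counts lie near the 28.1% called lower over all features. All these changes are against 0 min and were not set beside the glucose control. Most of the list genes had no read in at least 1 library and were not tested.

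The 8 genes are transcribed outside the nucleus, where Nab3 and Pol II act, and they took few of the cross-linked reads. In the 14 Pol II libraries without glucose they took 0.00717 to 0.0390% of reads (median 0.0166%, 282 reads in all), against 0.0165 to 0.0291% in the 7 Pol II libraries of the glucose control (median 0.0241%, 599 reads). In the 14 Nab3 libraries without glucose they took 0 to 0.0148% (median 0.00256%, 170 reads), against 0 to 0.00375% in the 7 Nab3 control libraries (median 0.00226%, 84 reads). RNA-Seq libraries held 0.427 to 1.01%. Without glucose, 2 Nab3 libraries had no read on the 8 genes, which at their depth allows shares of up to 0.00558% and 0.00238% (3 reads), and 1 control library had none, which allows up to 0.00403%.

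In glucose at 0 min the share was lower in Nab3 than in Pol II libraries. It was 0.00181, 0.00443 and 0.00226% in the 3 Nab3 libraries, against 0.0129, 0.0132 and 0.0183% in the 3 Pol II libraries. The groups did not overlap, and the means were 0.00284 ± 0.00140% and 0.0148 ± 0.00303% (SD, n = 3 each), 5.21-fold higher in Pol II. The two-sided exact permutation test gave p = 0.1, the smallest value that 3 against 3 can give. Among reads outside rRNA and tRNA features Pol II was 7.19-fold higher than Nab3, and the same exact permutation test again gave p = 0.1. In the UV instrument test the Vari-X-linker library had 0 of 10350 reads on the 8 genes, which allows a share of up to 0.0290%. The Megatron libraries had 23 of 1309744 reads (0.00176%) and 32 of 971224 reads (0.00329%), so a difference between the instruments was not detectable at this depth.

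**Figure D4:**
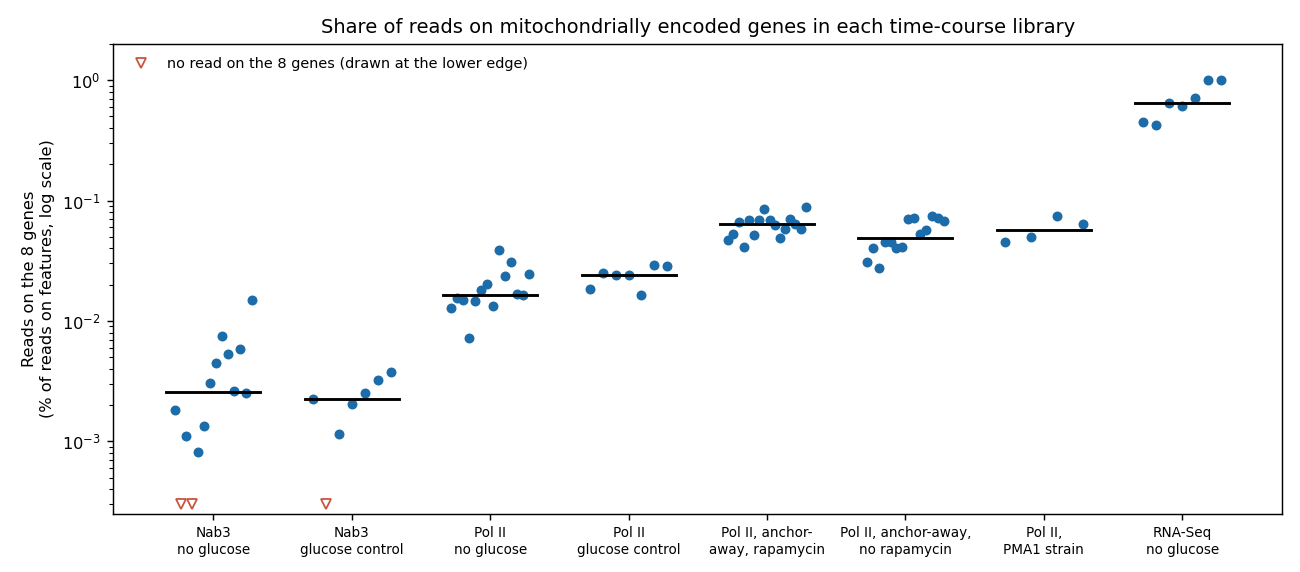
Percent of reads on the 8 mitochondrial genes (log axis) by assay and condition; points are single time-course libraries and black lines are medians, and open triangles mark the libraries with no such read. RNA-Seq libraries lay between 0.427 and 1.01% and Nab3 libraries at or below 0.0148%. Pol II libraries of BY4741 lay between 0.00717 and 0.0390%. Those of the anchor-away strain, with and without rapamycin, lay between 0.0274 and 0.0881%, and those of the strain with FKBP12 on Pma1 between 0.0457 and 0.0744%.

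Cross-linked reads did not stand in one ratio to RNA-Seq reads across the genes. For each gene with enough RNA-Seq reads, its share of cross-linked reads in the Pol II glucose control was divided by its share in RNA-Seq at 0 min. The quotient was 0.0318 for COX1, 0.0418 for COX2, 0.0748 for COB, 0.137 for COX3 and 0.159 for ATP6, where the median of 5107 nuclear protein-coding genes was 1.05. Only 2 of the 5107 genes were below COX1, 5 below COX2, 8 below COB, 24 below COX3 and 42 below ATP6. OLI1 stood apart at 0.588 (88 reads), with 1112 nuclear genes, or 21.8%, below it. The quotients set libraries of different preparation side by side and have no interval, and OLI1 spans 231 bases. The parts of feature length and library preparation in them were not tested.

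In the Nab3 glucose control the quotient of OLI1 was 0.0884 (17 reads) and that of COX1 0.00448 (48 reads), against a nuclear median of 0.257, with 966 and 13 nuclear genes below them. In anchor-away Pol II libraries the quotient of OLI1 was 1.90 with rapamycin and 1.54 without, above the nuclear medians of 0.842 and 0.865. COX1 stood at 0.0815 with rapamycin and 0.0775 without. The anchor-away quotients set another strain, sampled mostly after glucose was removed, beside BY4741 RNA-Seq at 0 min in glucose. The OLI1 share of RNA-Seq reads was 0.0304% at 40 min and 0.0059% at 0 min. Quotients over RNA-Seq at 40 min would be lower for OLI1 and were not taken. Reads with several matches in the genome were placed at random by the authors.

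Whether Pol II reads on the mitochondrial genes changed without glucose could be tested for COX1 and COB, the 2 of 8 with a read in every library. COX1 had 14, 1, 3, 3, 4, 6 and 22 reads along the first time-course without glucose and 4, 5, 7, 6, 4, 5 and 9 along the second. COB had 9, 2, 8, 1, 2, 7 and 9 reads and 8, 2, 9, 4, 2, 4 and 9 reads. The depth of these libraries differed, so changes were taken in log2(FPKM + 1). Against 0 min the 2 time-courses differed in sign for COX1 at 1, 2, 4, 8 and 14 min and for COB at 1, 2 and 14 min, and had the same sign at 20 min.

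Neither was called by limma at any time-point, at an adjusted p or at an unadjusted p under 0.05 (0 of 2 at each), nor by limma-voom on reads. Over all features 0, 1.04, 3.08, 27.5, 34.3 and 35.9% were called at 1, 2, 4, 8, 14 and 20 min. At 20 min the log2-fold change was 0.14 ± 0.43 for COX1 (SE; 95% interval −0.77 to 1.06, adjusted p = 0.82) and −0.38 ± 0.50 for COB (−1.43 to 0.68, adjusted p = 0.58). With equal library medians these values were 0.48 and 0.01, and with limma-voom 0.91 and 0.14, so COB had no stable direction. In the glucose control COX1 had 44, 15, 57, 38, 22, 32 and 57 reads and COB 13, 6, 20, 14, 8, 28 and 25. The change without glucose minus that in the control was 0.14 ± 0.73 for COX1 (−1.43 to 1.71, adjusted p = 0.93) and −0.63 ± 0.84 for COB (−2.44 to 1.18, adjusted p = 0.71) at 20 min, where 1.56% of all features were called. These intervals leave room for changes of 2-fold and more, so a lack of change was not shown.

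For Nab3 no member had a read in every library and none was tested (0 of 8), where 28.4% of features were called at 20 min and 35.0% at 40 min. Against the glucose control none was tested either, with 0.742% of features called at 20 min. With no filter on low values 7 members were tested and 2 of 7 were called at 40 min, with 9.73% of 12009 features called. COX2 gave 1.58 ± 0.33 (adjusted p = 0.0257) and COX3 2.58 ± 0.61 (adjusted p = 0.0410). The 40 min value rests on 1 library, at 45 min, which had 3 reads on COX2 and 10 on COX3. That library also had the highest Nab3 share on the 8 genes (47 reads, 0.0148%, 0.0109 to 0.0197%), and without it the highest was 0.00754%.

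In the anchor-away cells the 8 genes took 0.0412 to 0.0881% of Pol II reads with rapamycin (16 libraries, median 0.0638%, 3990 reads) and 0.0274 to 0.0749% without (14 libraries, median 0.0489%, 1915 reads). The ranges overlapped. The comparison took the culture as the replicate, 2 with and 2 without rapamycin, and averaged time-points within 3 windows.

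COX2, with 82 and 59 reads in the last window (14 to 40 min) of the 2 rapamycin cultures, averaged 4.19 and 4.27 on the log2(FPKM + 1) scale there, against 1.73 and 4.19 in the cultures without. COB averaged 2.64 and 2.40 with rapamycin, against 1.44 and 2.05 without. For both genes it was the first culture without rapamycin that was low, and that of COX2 held 2 reads. That culture had 2 libraries in this window, with 192364 reads on features, and the last of them was taken later than 40 min. Each other culture had 3 libraries there, with 856172 to 1422159 reads. The parts of sampling time and depth in these differences were not tested.

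None of the 4, 4 and 5 members tested in the windows of 1 and 2, 4 and 8, and 14 to 40 min was called by limma (0 also at an unadjusted p under 0.05), where 0.907, 0.635 and 1.5% of features were called. In the last window COX2 differed by 1.27 ± 0.64 (adjusted p = 0.267), COB by 0.78 ± 0.37 (adjusted p = 0.253) and COX1 by 0.40 ± 0.40 (adjusted p = 0.540). With equal library medians the differences in that window were 0.70 for COX2, 0.28 for COB and below 0 for COX1 (−0.12), COX3 (−0.09) and OLI1 (−0.08). Without the second culture that had no rapamycin, 4 of 5 were called, COX2 (2.50, adjusted p = 0.00052), COX3 (1.40, adjusted p = 0.00959), COB (1.08, adjusted p = 0.0311) and OLI1 (0.94, adjusted p = 0.0353). In that fit 37.7% of all features were called, and it rests on 1 culture without rapamycin that is assumed to vary like the others.

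In the strain with FKBP12 on Pma1, with 1 library per condition, the share was 0.0501% with rapamycin (0.0450 to 0.0556%) and 0.0457% without (0.0412 to 0.0505%) at 0 min. At 14 min it was 0.0634% with rapamycin (0.0581 to 0.0691%) and 0.0744% without (0.0665 to 0.0830%). COX1 stood at 7.64 FPKM with rapamycin (150 reads) and 6.30 FPKM without (150 reads) at 0 min, and at 7.65 FPKM with (199 reads) and 10.1 FPKM without (130 reads) at 14 min. With 1 library per condition, neither a difference between conditions nor its absence can be read from these values.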

How the data were processed

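The authors deposited 1 table per time-course with FPKM values (fragments per kilobase of feature, scaled to library size) for every feature of the Ensembl R64 annotation, and these FPKM values were used. Per the labels reads were aligned with Novoalign 2.0.4; per the study's methods, multi-mapped reads were distributed at random and counted with pyCRAC. An aligner for RNA-Seq was not given separately in the sources used here. FPKM steps gave back whole reads (within 0.1 reads, for 100% of values under 50 reads, in all 86 libraries), using the feature span with introns as length. The Nab3 and Pol II time-course tables had in addition been scaled to a common sum per table, and the RNA-Seq table had not. Features not listed in a table counted as 0. Of 88 samples 2 had no matching column, and 3 value columns matched no label and were not used.

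RNA-Seq changes were log2 of FPKM ratios with exact counting intervals of 95%; a feature counted for the background with at least 10 reads at either time. Nab3 and Pol II values were tested with limma 3.58.1 (R 4.3.3) on log2(FPKM + 1) for features above 0 in every library, with trend, Benjamini-Hochberg adjustment over all features tested and a threshold of 0.05; fold changes on this scale understate those of low genes. The time-course was a block: deviations from the time-point means correlated between the libraries of a time-course with r of at least 0.20 in Nab3 and a median r of 0.09 in Pol II (lowest 0.02), and the pairing comes from the labelled time-course, whose time-points shared a cDNA library. Temporally close time-points were matched (14 to 18, 20 to 28 and 40 to 51 min). Shares were compared with exact permutation tests (scipy 1.17.1), and the scripts were tested on simulated data. Alternatives changed the scaling, pseudocount, filter, block, model and replicates.

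All 8 genes were named; of other mitochondrial features the rRNAs, intronic reading frames of COX1 and COB and the 3 with most reads; of each nuclear list the 2 highest and 2 lowest at 40 min; and the 3 features most like the mean of the 8 genes. Genes and lists were chosen with earlier results of these data known. The sequences come from RefSeq R64.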

Additional observations from a re-analysis of the deposited data

Results flagged for a closer look

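The Nab3 library at 45 min without glucose held 247 reads on mitochondrial tRNAs, or 0.0777% of its reads, a signal in RNAs that no comparison above used. The most in another Nab3 library was 20 reads and the highest share in another was 0.00885%. Of the 14 mitochondrial tRNAs with a read, tD(GUC)Q had 124 and tQ(UUG)Q 39. Nuclear tRNAs took 17.4% of reads in that library, against at most 12.7% in the other Nab3 libraries. The part of this in the share of the 8 genes there was not tested.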

How the results depend on the processing

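On log2(FPKM + 1), 1 of the 8 genes in place of 2 was 2-fold higher at 1, at 4 and at 8 min, since the pseudocount takes most of the change of VAR1 (2.73 in place of 6.41 at 40 min). Scaled to one FPKM sum, 7 of 8 were 2-fold higher at 40 min. With no filter, 2 members were called in Nab3 in place of 0. With rapamycin, leaving out each culture in turn gave 0 to 4 members called, 4 of them without the second culture that had no rapamycin. With the replicate number as a block the rapamycin comparison called 0 members, and with no replicate block the Nab3 and Pol II changes also called 0; over all features the block moved the rapamycin calls to 395, against 169 without it, and dropping it in Nab3 gave 3240 calls, against 5462 with it. No value that was called changed direction. Values that were not called did: at 20 min in Pol II, COB was −0.38, but 0.01 with equal library medians and 0.14 with limma-voom, where COX1 was 0.48 and 0.91 in place of 0.14. With rapamycin at 14 to 40 min, equal medians turned COX1 (−0.12 in place of 0.40), COX3 (−0.09 in place of 0.52) and OLI1 (−0.08 in place of 0.58), and leaving out the first culture without rapamycin turned COX1 (−0.05) and COX3 (−0.36). Leaving out a Pol II time-course gave values at 20 min of 0.12 to 0.16 for COX1 and −0.55 to −0.20 for COB, with no test. With no minimum of reads, 11.6% in place of 6.16% of all features were 2-fold higher at 1 min. Chosen after seeing the data, 30 min in place of 40 min gave 7 of 8 genes 2-fold higher, and leaving out the 45 min library lowered the highest Nab3 share to 0.00754%. The depth limits ATP8 and VAR1 in RNA-Seq at 0 min and all members in Nab3. Summed over time-points, calls over all features were 2773 in Nab3 and 1803 in Pol II with no filter, against 5462 and 2942; 1604 in Pol II with a minimum mean FPKM of 10; 52 against 87 in the Nab3 control comparison with a pseudocount of 0.1; and for rapamycin, against 169, 104 with that pseudocount, 6 with no filter, 58 with equal medians and 54 to 4099 without one culture.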
